A study of Mus musculus with 6 samples.

Results

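The transcriptional response of mouse macrophages to 3 h of lipopolysaccharide (LPS, the outer membrane glycolipid of Gram-negative bacteria) was described across all expressed genes. The genes were the 10858 of 24752 in the deposited table that reached at least 1 FPKM (fragments per kilobase of exon, scaled to the fragments of the library) in at least 2 of 4 libraries, 2 control and 2 LPS. Of the remainder, 13894 genes did not reach that minimum, and 2540 of those were listed at 0 in all 4 libraries. Among the genes retained, 8655 were at or above 1 FPKM in every library, 286 entered only through the LPS libraries and 1427 only through the control libraries. Just inside the minimum were Gcfc2, Lrrc29 and Gm5436, whose second-highest library lay at 1 FPKM, and just outside were Gm26243, Mir8103 and Gm24097. Genes that entered through a single group had to differ between the groups.

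The cells were bone marrow-derived macrophages, a primary macrophage culture grown over 7 days from femur and tibia marrow in medium with 10% serum and 10 ng/ml M-CSF, the growth factor that drives this lineage. The donor mice were between 8 and 10 weeks of age. The control group had no LPS, and the LPS group received 100 ng/ml. Per the labels' protocols a lentiviral vector, either a control or one overexpressing Glul, was applied for 36 h before stimulation, but the vector status of the control and LPS libraries is unstated. A further group, LPS with the Glul vector (Glul_LPS, 2 libraries), entered only the estimate of the spread between replicates. Strain, sex and whether the replicates were separate cultures or animals are unstated too. Replicate spread, and with it every p-value, may therefore be technical only. Libraries are named B and C after their labels, and wherever a pair of values is printed, B stands first.

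LPS is sensed by Toll-like receptor 4 with its coreceptors. One branch of signalling, through the adaptor MyD88, activates NF-kB and MAP kinases and induces inflammatory cytokines within the first hours. Another branch, through TRIF and the factor IRF3, induces interferon beta, which acts back on the cells through JAK-STAT signalling and induces the interferon-stimulated genes. Primary response genes need no new protein synthesis, secondary response genes do, and a set of induced inhibitors restrains both branches.

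Library totals were 18691669 and 17333625 fragments for control and 16103044 and 17100908 for LPS, recovered from the table, and counting limits the precision mainly of genes near 1 FPKM. Replicates correlated at 0.994 (control) and 0.995 (LPS) on the log2 scale across genes, which are not independent replicates, and differed by more than counting error, with a mean chi-square per gene of 3.70 and 5.35. Of 12 macrophage markers, every one exceeded 1 FPKM in every library, led by Lyz2 (lysozyme) at 18480 and 17921 FPKM in control and 13175 and 14264 in LPS. The summed level of the other marker lists was low in both groups: from 99.4 to 109.9 FPKM for 11 neutrophil markers, 18.4 to 24.4 for 6 B cell markers, 11.8 to 15.5 for 8 T and NK cell markers, 36.2 to 42.5 for 6 dendritic cell markers, 4.16 to 6.67 for 6 stromal markers, 23.0 to 39.7 for 4 megakaryocyte markers, 58.2 to 73.9 for 4 osteoclast markers and 0.0258 to 0.465 for the 4 erythroid markers in the table. Members of these lists differed. Csf3r stood at 44.6 to 55.2 FPKM, Mmp8 at 37.1 to 54.8, Itgax at 34.7 to 42.3, Ighm at 17.9 to 22.6 and Cd4 at 7.47 to 14.3. Ly6g and Hbb-bs were at 0 in all 4 libraries, and Cd3e, Cd8a, Mpo and Flt3 were below 0.2 FPKM in each. Lck (0.146 and 0.138 in control, 3.75 and 3.35 in LPS), Pdgfrb (0.811 and 0.685, 3.95 and 3.02) and Xcr1 (0.120 and 0.117, 1.09 and 1.30) were higher in LPS. Mast cell and basophil markers summed to 0.299 and 0.474 FPKM in control and to 6.37 and 6.89 in LPS, of which Hdc, the histamine-forming enzyme, made nearly all, while Cpa3, Mcpt8 and Fcer1a stayed below 0.2. The part of these markers in the results was not tested, and in bulk libraries fewer cells of a type and less RNA per cell cannot be told apart. Glul itself stood at 140.2 and 140.3 FPKM in control and 30.6 and 33.4 in LPS, and at 37.2 and 37.7 in Glul_LPS, so the libraries labelled as overexpressing Glul lay slightly above the LPS libraries and far below control.

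LPS shifted most of the expressed transcriptome. On the log2(FPKM + 1) scale used throughout for differences, 9320 of 10858 genes (85.8%) passed an adjusted p of 0.05 in a limma moderated test with Benjamini-Hochberg adjustment, 1860 (17.1%) higher and 7460 (68.7%) lower in LPS. The libraries of the groups did not overlap for 10091 genes (92.9%). A difference of at least 1 log2 unit beside the adjusted p was reached by 816 genes upward (7.52%) and 2162 downward (19.9%). The median gene was 0.50 lower in LPS. Only relative levels can be read from FPKM, and with each library centred on its median gene 7293 genes passed (67.2%), 3724 upward (34.3%) and 3569 downward (32.9%), of which 1359 (12.5%) and 672 (6.19%) reached 1 log2 unit. Differences below are as deposited; a centred difference is 0.52 higher for each gene, since the libraries' medians differed by that much, and centring therefore turns small decreases into increases.

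As deposited, large rises were more extreme than large falls, and falls were more numerous. There were 71 genes that differed upward by 4 or more log2 units, 82 by 3 to 4, 193 by 2 to 3 and 473 by 1 to 2. Downward, 45 differed by 3 or more, 208 by 2 to 3 and 1913 by 1 to 2. After centring, rises of at least 1 log2 unit were the more numerous, 1359 against 672 falls. On log2(FPKM + 1) the size of a fall is also limited by the level of the gene in control. The 71 genes of the top class had a median of 2.58 FPKM in control and 169.6 in LPS, whereas the 45 of the bottom class had a median of 26.7 in control and 1.38 in LPS. Genes that rose by at least 1 log2 unit made up 3.10% and 2.93% of all FPKM in the control libraries and 22.7% and 20.6% in the LPS libraries. The genes that fell by as much made up 8.58% and 8.70% in control and 2.64% and 2.63% in LPS. The number of genes at or above 1 FPKM was 10726 and 10711 in control and 9274 and 9343 in LPS. By mean level the median difference was furthest below 0 for low genes. With voom on recovered fragments, which adds only a small offset to each count, it was -1.09 for genes under 3 FPKM. It was -0.69 at 3 to 10, -0.41 at 10 to 30, -0.20 at 30 to 100, -0.20 at 100 to 1000 and -0.36 in the 25 genes over 1000. The minimum level shapes the low classes: 1427 genes entered only through control and had to be lower in LPS, against 286 only through LPS. How much of the low medians this makes was not tested.

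**Figure D1:**
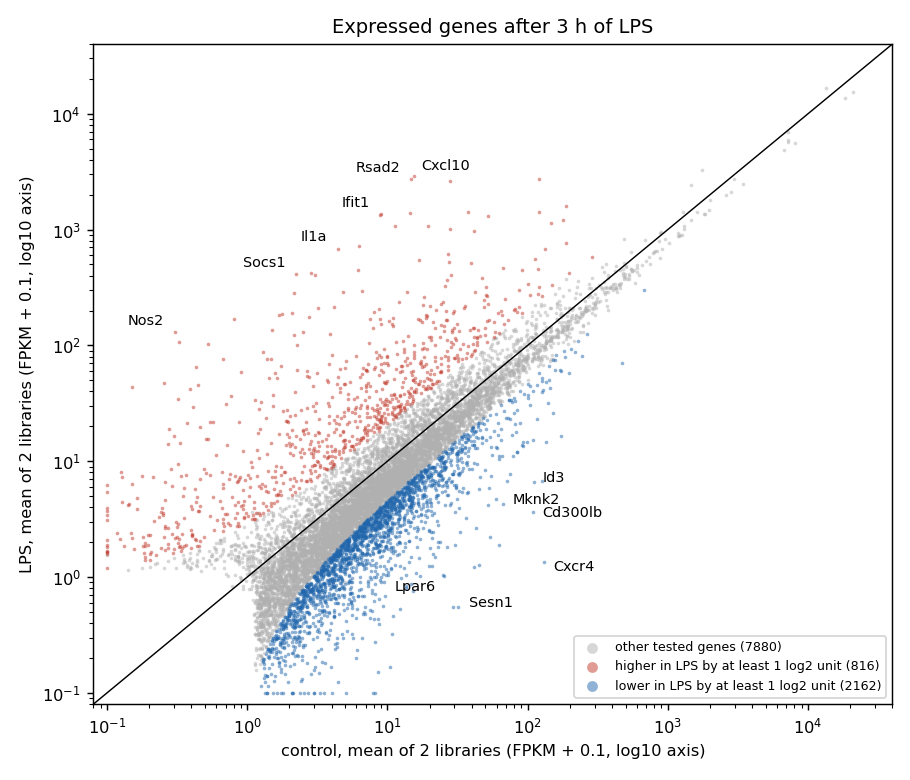
Mean FPKM of each of the 10858 genes in control (x, log10 axis of FPKM + 0.1) and LPS (y, same axis), one point a gene, with genes past the adjusted p of 0.05 and at least 1 log2 unit in colour (816 higher, 2162 lower) and 6 of the 15 largest rises and 6 of the 15 largest falls among protein-coding genes named. The diagonal marks equal levels, and the bulk of the points lies just under it, as the median of -0.50 states.

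Among protein-coding genes the steepest rise belonged to Cxcl10, a chemokine that recruits activated T cells through Cxcr3, which stood at 15.1 and 15.5 FPKM in control and 2966 and 2853 in LPS, a difference of 7.48 (SE 0.05, n = 2 libraries a group as for every gene). Rsad2 (viperin, an antiviral radical SAM enzyme) went from 15.2 and 13.9 to 2859 and 2623 FPKM, a difference of 7.46 (SE 0.06). Ifit1, which binds foreign RNA caps, was at 9.27 and 8.54 in control and 1369 and 1339 in LPS (7.10, SE 0.05). In each of these 3 genes the groups were far apart and the replicates of each group close together. Cmpk2, a mitochondrial nucleotide kinase encoded beside Rsad2, rose from 9.36 and 8.29 to 1395 and 1256 FPKM (7.08, SE 0.07). Socs1, the inhibitor of JAK kinases, rose from 2.02 and 2.27 to 404 and 419 (7.04, SE 0.06) and was thus an inhibitor of interferon signalling among the 15 largest rises. The cytokine genes Il1a (4.88 and 3.77 in control, 703 and 669 in LPS), Il27 (2.78 and 2.71, 439 and 408) and Il6 (0.264 and 0.190, 118 and 96.8) rose by 7.02, 6.82 and 6.46.

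Enzymes, GTPases, a chemokine and interferon-induced proteins filled the rest of the 15 largest rises. Nos2, the inducible nitric oxide synthase, was at 0.267 and 0.144 FPKM in control and 144 and 116 in LPS (6.76, SE 0.11). Mmp13, a collagenase, was at 6.62 and 5.76 and 753 and 696 (6.66, SE 0.08). Gbp5, a guanylate-binding protein active against intracellular bacteria, was at 3.33 and 2.59 and 398 and 412 (6.69, SE 0.09). Replicates of these 3 genes lay close together within each group, and no library of one group came near the other. Rnd1, an atypical small GTPase that loosens the actin cytoskeleton, was at 0.793 and 0.622 and 163 and 175 (6.64, SE 0.10). Ifi205, of the interferon-induced PYHIN family, rose by 6.53, Ccl4, a chemokine that attracts monocytes and T cells, by 6.50, and Ifit2, an RNA-binding antiviral protein, by 6.49. The 15 adjusted p-values lay between 7.91e-09 and 1.09e-07 (limma, Benjamini-Hochberg). These genes were chosen as past the test and without overlap of the groups, so the values describe the choice and add no support. Il6, Nos2 and Rnd1 reached the minimum level through the LPS libraries alone.

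**Figure D2:**
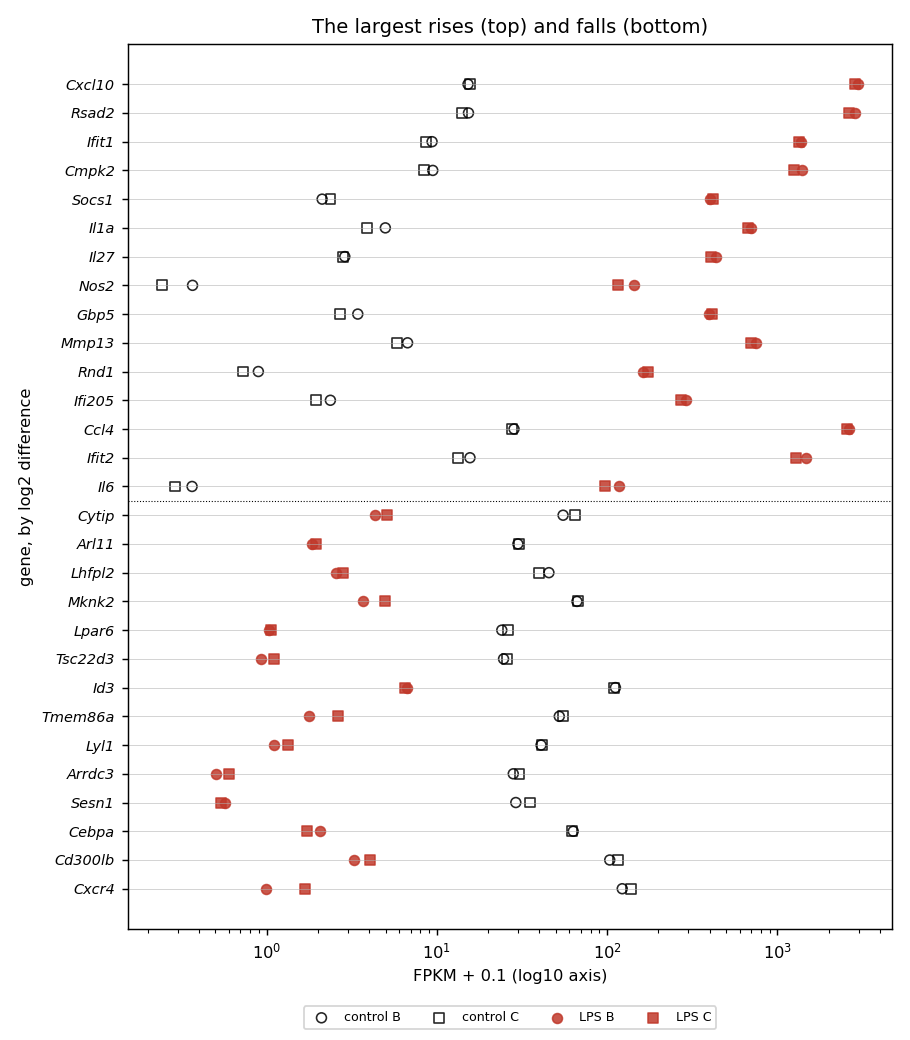
FPKM in each of the 4 libraries (x, log10 axis of FPKM + 0.1) for the 15 largest rises and 14 of the 15 largest falls among protein-coding genes (y), with open symbols for control and filled symbols for LPS, circles for library B and squares for C. Rows run from Cxcl10 at the top (7.48 on the log2 scale) to Cxcr4 at the bottom (-5.89). Control and LPS symbols are apart in every row because only genes without overlap were chosen, and 92.9% of all tested genes had none.

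Sequence upstream of the start site was compared because the steepest rises and falls differed in it. For 7846 of the 9638 protein-coding genes tested (81.4%), RefSeq promoters on GRCm38.p6 were matched by symbol, covering 250 bases before to 50 after each start, and a gene counted as holding a motif when any of its promoters did, on either strand. The 250 bases before the start are printed for 4 of the largest rises and the 2 largest falls, each chosen because it held a motif searched. Matches of 4 motifs on either strand are in capitals. These were paired GAAA (GAAA, any 2 bases, GAAA; the type bound by interferon regulatory factors and their STAT complexes), the NF-kB type (GGGA, any 2 bases, TTCC), the AP-1 type (TGANTCA, N being any base) and TATAAA.
Cxcl10 (chr5:92348890-92349139, - strand): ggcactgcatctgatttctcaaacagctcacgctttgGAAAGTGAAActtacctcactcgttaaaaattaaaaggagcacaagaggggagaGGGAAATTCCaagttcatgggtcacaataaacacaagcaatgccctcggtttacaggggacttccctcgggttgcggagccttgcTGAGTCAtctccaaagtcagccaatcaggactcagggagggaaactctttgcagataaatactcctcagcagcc
Rsad2 (chr12:26456453-26456702, - strand): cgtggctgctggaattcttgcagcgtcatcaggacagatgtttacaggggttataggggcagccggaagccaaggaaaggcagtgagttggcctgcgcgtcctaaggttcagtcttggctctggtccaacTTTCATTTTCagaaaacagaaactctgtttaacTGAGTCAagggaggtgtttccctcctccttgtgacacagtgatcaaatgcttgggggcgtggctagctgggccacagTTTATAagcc
Ifit1 (chr19:34640639-34640888, + strand): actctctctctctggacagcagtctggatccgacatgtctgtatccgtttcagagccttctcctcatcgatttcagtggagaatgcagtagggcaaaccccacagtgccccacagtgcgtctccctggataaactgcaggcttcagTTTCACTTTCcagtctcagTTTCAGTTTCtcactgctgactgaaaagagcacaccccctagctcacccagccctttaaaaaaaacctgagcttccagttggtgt
Socs1 (chr16:10785537-10785786, - strand): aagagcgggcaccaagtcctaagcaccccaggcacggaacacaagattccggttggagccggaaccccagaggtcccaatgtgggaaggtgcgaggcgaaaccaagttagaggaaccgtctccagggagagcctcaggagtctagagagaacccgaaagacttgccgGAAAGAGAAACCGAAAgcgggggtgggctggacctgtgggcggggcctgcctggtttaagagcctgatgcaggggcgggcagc
Cxcr4 (chr1:128592300-128592549, - strand): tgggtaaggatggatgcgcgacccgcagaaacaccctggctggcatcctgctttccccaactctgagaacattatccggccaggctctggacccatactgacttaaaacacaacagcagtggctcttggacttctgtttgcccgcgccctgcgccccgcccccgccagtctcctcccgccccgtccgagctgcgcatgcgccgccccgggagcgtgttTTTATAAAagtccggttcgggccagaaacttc
Cd300lb (chr11:114934372-114934621, - strand): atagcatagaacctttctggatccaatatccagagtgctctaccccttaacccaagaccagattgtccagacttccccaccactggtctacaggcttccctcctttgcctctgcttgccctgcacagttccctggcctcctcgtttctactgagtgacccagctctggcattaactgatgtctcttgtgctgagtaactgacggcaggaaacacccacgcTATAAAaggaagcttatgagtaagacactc

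Paired GAAA stood 213 bases before the start of Cxcl10, with an NF-kB type match at 159 and an AP-1 type match at 74. In Ifit1, paired GAAA was found at 104 and 85 bases, and in Socs1 both matches, at 83 and 77 bases, overlapped. Cxcr4 and Cd300lb held TATAAA 30 bases before the start and none of the other motifs in capitals; in Cxcr4 the matches on both strands overlapped. Of the 50 matched genes that rose by 4 or more log2 units, 22 (44.0%) held paired GAAA, against 22.8% of those that rose by 3 to 4, 12.3% by 2 to 3, 9.81% by 1 to 2, 4.15% of all tested protein-coding genes and 3.99% of all 27025 genes with promoters. Among the 34 matched genes that fell by 3 or more, 1 (2.94%) held it. TATAAA was found in 36.0% of the top class, 17.6% of the bottom class and 8.37% of all tested. For TGANTCA the shares were 28.0%, 5.88% and 6.31%, and for the NF-kB type 10.0%, 0% and 1.84%. The ETS type motif CCGGAAGT ran the other way, at 10.6% of all tested genes, 13.2% of genes down by 0 to 1, 4.0% of the top class and 2.94% of the bottom class. The E-box CACGTG was in 6.0%, 8.82% and 12.5% of the top class, the bottom class and all tested, and TGACGTCA (cyclic AMP response element) in 0%, 0% and 3.77%. These are letter matches in short windows, not measured binding.

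Genes of the top class were also short and poor in CpG. Their median number of exons was 5, their median exon length 2608 bases and their median span 10.6 kb, against 8 exons, 4457 bases and 23.1 kb for all tested protein-coding genes. Genes that fell by 3 or more had a median of 5 exons, 4001 exon bases and 12.8 kb. The median promoter held 4.5 CpG in the top class, 7 in the class that rose by 3 to 4, 19.5 in the bottom class and 23 over all tested. Short span and few exons were thus shared by both extremes, whereas low CpG and paired GAAA went with the rises alone in these classes. These classes were formed from the measured change, and the shares are descriptions with no test.

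**Figure D3:**
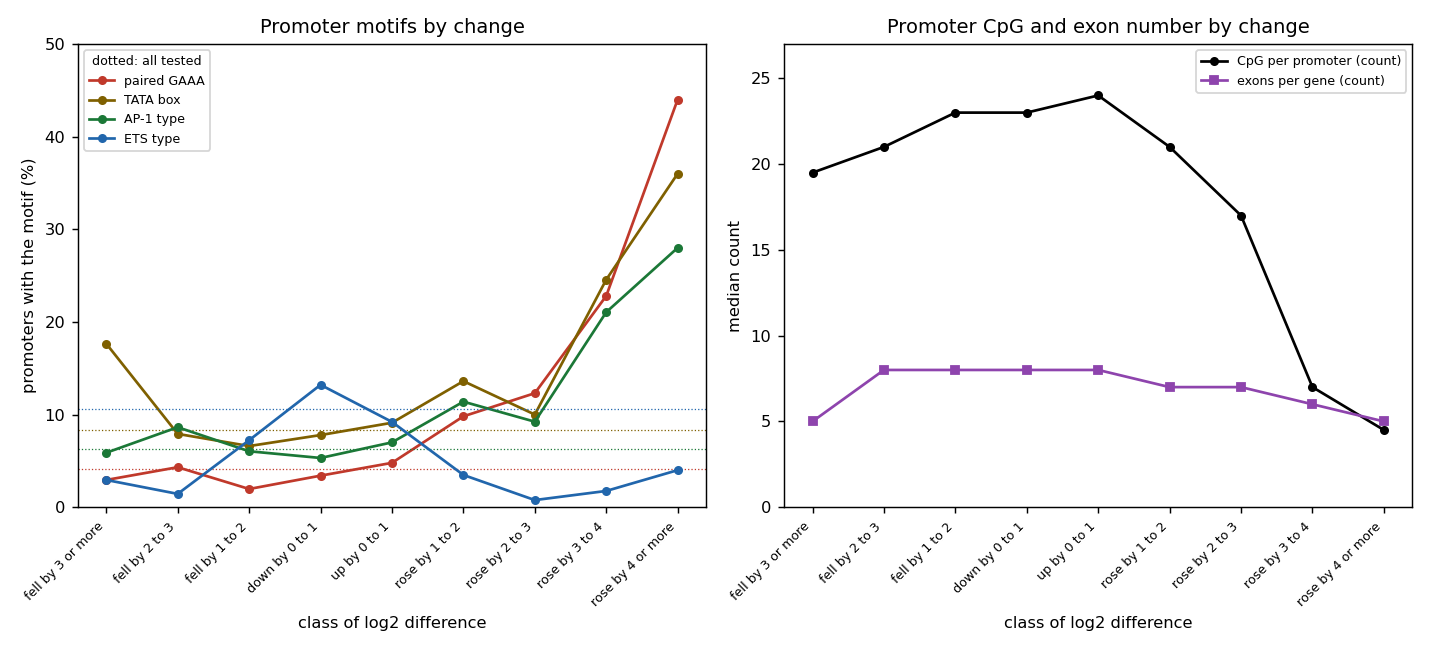
Left, percent of matched protein-coding genes whose promoter held each of 4 motifs (y, percent) in 9 classes of log2 difference from the steepest falls to the steepest rises (x); right, median CpG count per promoter and median exon number in the same classes. Paired GAAA climbs to 44.0% in the class that rose by 4 or more, where the median CpG count is 4.5.

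Some of the large rises lay close to each other. Of 138 protein-coding genes that rose by 3 or more log2 units, 60 (43.5%) had another such gene within 500 kb on the same chromosome. Of 222 genes that fell by 2 or more, a class of another size and threshold, 56 (25.2%) did. The share over all tested genes was not computed, so these shares have no background. On chromosome 11, 9 genes of the class that rose by 3 or more lay between the Schlafen gene Slfn5 and Ccl4 (chr11:82951349-83664683, GRCm38). Of 16 tested genes in that stretch, 12 rose and 2 fell. On chromosome 1, 8 Ifi200 genes of the class lay in chr1:173468485-174031810, where all 11 tested genes rose. The Ifit cluster on chromosome 19 (chr19:34473786-34650009) held 6 of the class among 7 tested genes, Ch25h (cholesterol 25-hydroxylase) among them. Several of these families consist of similar copies, so reads may be split between members.

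Some genes went from near silence to abundance. Below 0.5 FPKM in both control libraries and at 5 or more in both LPS libraries were 32 genes, 24 of them protein-coding, a set chosen by these values and given as a description. Nos2 and Il6 belonged to it. Cxcl9, a chemokine of the interferon gamma program, was at 0.479 and 0.363 in control and 106 and 98.96 in LPS. Il12b, the p40 subunit of interleukins 12 and 23, was at 0.163 and 0.147 and 54.5 and 40.2. Upp1, uridine phosphorylase, was at 0.409 and 0.177 and 41.6 and 41.6. Secreted proteins, an enzyme of nucleotide salvage and GTPases were thus all part of the set. Edn1, the vasoconstrictor endothelin, was at 0.200 and 0.243 and 36.6 and 32.4. Gbp4, a guanylate-binding protein, was at 0.350 and 0.316 and 66.1 and 63.1, and AA467197 (Nmes1, a mitochondrial protein and host of a microRNA) at 0.400 and 0.288 and 50.1 and 40.7. Ccl12, a chemokine for Ccr2, was at 0.299 and 0.322 and 32.8 and 26.1. Ifnb1, interferon beta, was at 0.357 and 0.462 in control and 14.6 and 16.5 in LPS. Control and LPS libraries of these genes did not overlap, which the definition of the set ensures.

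The opposite set, at 5 FPKM or more in both control libraries and below 0.5 in both LPS libraries, held 24 genes, 18 of them protein-coding. Sesn1, a stress-induced inhibitor of mTORC1 signalling, was at 28.98 and 34.96 FPKM in control and 0.468 and 0.441 in LPS. Cnr2, the cannabinoid receptor of immune cells, was at 10.4 and 10.4 and 0.0312 and 0.103. Bmf, a pro-death BH3-only protein, was at 8.01 and 8.98 and 0.0473 and 0.0557. Of these 3, Cnr2 and Bmf approached the level of a few fragments in LPS. Per1, a repressor of the circadian clock, was at 11.3 and 10.6 and 0.232 and 0.488. Kcnj2, an inward rectifier potassium channel, was at 8.89 and 8.15 and 0.388 and 0.279, and Tfeb, the master regulator of lysosomal and autophagy genes, at 8.08 and 7.66 and 0.274 and 0.402. Vgll4, a cofactor of TEAD factors, was at 8.01 and 9.23 and 0.357 and 0.228.

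On the log2(FPKM + 1) scale the largest fall among protein-coding genes was that of Cxcr4, the receptor for Cxcl12 that retains leukocytes in bone marrow. By the plain ratio of FPKM, Bmf and Cnr2 (above) fell more. Cxcr4 stood at 123 and 139 FPKM in control and 0.893 and 1.58 in LPS and fell by 5.89 (SE 0.15). Cd300lb, an activating receptor of the CD300 family, was at 104 and 116 and 3.17 and 3.95 and fell by 4.60 (SE 0.14). Cxcr4 and Cd300lb are surface receptors that were abundant before LPS, and neither LPS library came close to the control level. Transcription factors of the macrophage lineage and of growth control made up much of the rest. Cebpa, a factor of myeloid differentiation, was at 63.1 and 61.9 in control and 1.96 and 1.62 in LPS (fell by 4.51, SE 0.08). Id3, an inhibitor of basic helix-loop-helix factors, was at 112 and 109.7 and 6.59 and 6.37 (fell by 3.90, SE 0.08). These factors were at 60 FPKM or more in each control library and below 7 in each LPS library. Lyl1, a basic helix-loop-helix factor of blood cells, fell by 4.31, and Tsc22d3, the glucocorticoid-induced leucine zipper protein Gilz, by 3.78.

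Signalling and trafficking genes were also among the 15 largest falls. Arrdc3, an alpha-arrestin that directs receptors to degradation, was at 28.00 and 30.5 FPKM in control and 0.406 and 0.504 in LPS (fell by 4.38, SE 0.08). Mknk2, a kinase of the translation factor eIF4E, was at 66.4 and 67.5 and 3.56 and 4.84 (fell by 3.72, SE 0.11). Lpar6, a receptor for lysophosphatidic acid, was at 23.96 and 25.9 and 0.932 and 0.953 (fell by 3.74, SE 0.07). Tmem86a (a lysoplasmalogenase), Arl11 (a small GTPase), Cytip (a cytohesin-binding scaffold) and Lhfpl2 (a tetraspan membrane protein) fell by 4.14, 3.47, 3.44 and 3.60. Adjusted p-values of the 15 falls, also chosen as past the test, lay between 1.28e-07 and 2.02e-06 (limma, Benjamini-Hochberg). Each of the 15 also stayed lower after centring, where Cytip, the least of them, was -2.92 against the median gene.

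Most primary response genes rose, and some immediate early genes among them fell. Of 25 tested, 20 rose and 3 fell, with a median difference of 2.54 against -0.50 for all genes (22 and 3 after centring). Ccl3, a chemokine for Ccr1, was at 41.8 and 33.6 FPKM in control and 1487 and 1327 in LPS (5.19, SE 0.11). Ptgs2, the inducible cyclooxygenase, was at 5.36 and 2.77 and 237 and 188 (5.44, SE 0.24). The control replicates of Ptgs2 differed by nearly as much as its lower value, far less than the difference between groups. The falling members were Fos, Jun and Btg2, the first 2 being subunits of the AP-1 factor and Btg2 an antiproliferative gene. Fos was at 172 and 173 in control and 16.5 and 16.3 in LPS and fell by 3.32 (SE 0.08). Btg2 was at 62.6 and 66.4 and 19.1 and 18.8 and fell by 1.71, and Jun was at 24.1 and 22.7 and 13.6 and 14.5 and fell by 0.70. The phosphatase gene Dusp1 did not pass the test (65.7 and 61.2 in control, 60.5 and 57.9 in LPS, adjusted p = 0.164 by limma with Benjamini-Hochberg adjustment) and rose by 0.42 after centring. With quantile normalization it passed downward (-0.26, adjusted p = 0.00761, limma), so its direction depends on the scaling.

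Secondary response genes rose in 19 of 20 cases, with a median difference of 4.33. The list held Ifit1, Nos2, Il6 and Mx1 (a dynamin-like antiviral GTPase) as its 4 largest rises, and Mx1 was at 12.3 and 10.1 FPKM in control and 1085 and 1048 in LPS (6.45, SE 0.09). The exception was Marco, a scavenger receptor, at 14.4 and 14.4 in control and 9.39 and 9.81 in LPS, which fell by 0.54 and stood at -0.02 against the median gene. Among 28 tested feedback inhibitors, 20 rose and 7 fell (22 and 3 after centring), with a median of 1.58. Usp18, which blocks the interferon receptor, was at 2.21 and 2.13 and 105 and 96.7 (5.01, SE 0.07). Socs3, an inhibitor of interleukin 6 family signalling, was at 18.4 and 14.9 and 534 and 556 (4.96, SE 0.10). Il1rn, the interleukin 1 receptor antagonist, was at 9.84 and 7.45 and 214 and 199 (4.44, SE 0.13). All 3 rose by more than 4 log2 units, above the median of the list. Of the members that fell, Trib1, a pseudokinase adaptor that targets C/EBP factors, was at 10.5 and 9.60 and 1.83 and 1.48 (fell by 2.06), and Dusp4, a MAP kinase phosphatase, at 7.44 and 5.96 and 1.34 and 0.939 (fell by 1.85).

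Transcription factor families split. Of 29 basic leucine zipper factors, 9 rose and 15 fell (13 and 12 after centring). Batf2, an interferon-induced partner of Irf1, was at 2.18 and 2.13 FPKM in control and 58.7 and 63.04 in LPS (4.29, SE 0.06), beside the falls of Cebpa and Fos given above. Cebpb, a close relative of Cebpa, was at 173 and 143 and 109 and 54.8; it fell by 1.01 (SE 0.34, adjusted p = 0.0263, limma with Benjamini-Hochberg adjustment), and its LPS replicates lay far apart. Against the median gene its difference was -0.50 and did not pass (adjusted p = 0.23, limma with Benjamini-Hochberg adjustment). Without LPS replicate C the difference as deposited was -0.52 (adjusted p = 0.115), and without either control replicate the call was also lost (adjusted p = 0.123 without B and 0.0601 without C, limma). Small Maf genes went both ways: Mafk (6.75 and 7.02 in control, 44.4 and 42.8 in LPS) rose by 2.50 and Maff (3.94 and 3.51, 20.8 and 21.8) by 2.24, whereas Mafg (25.9 and 23.8, 7.11 and 6.93) fell by 1.69.

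Among 15 ETS and RUNX factors, 4 rose and 8 fell (7 and 4 after centring). Fli1, an ETS factor of blood and vessels, was at 22.2 and 22.6 in control and 4.54 and 5.55 in LPS (fell by 1.96). Runx3 was at 2.75 and 2.28 and 0.323 and 0.292 (fell by 1.42), Etv5 at 5.74 and 5.54 and 1.53 and 1.44 (fell by 1.42), and the repressor Etv3 at 17.5 and 19.3 and 41.8 and 42.1 (rose by 1.15). The macrophage master factor Spi1 (PU.1) was at 175 and 163 in control and 158 and 157 in LPS and did not pass the test (adjusted p = 0.11, limma with Benjamini-Hochberg adjustment), although it did without control replicate C (-0.15, adjusted p = 0.0468) and rose by 0.42 after centring. With quantile normalization it passed downward (-0.33, adjusted p = 0.000913, limma), so its direction depends on the scaling.

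Lipid-sensing and lysosomal regulators mostly fell, as did most genes. Of 12 MiT/TFE and lipid-sensing factors, 3 rose and 9 fell, against 17.1% and 68.7% of all genes. Their median was -0.77, against -0.50 for all genes. After centring 3 rose and 7 fell, against 34.3% and 32.9% of all genes. Rxra, the shared partner of the nuclear receptors, was at 17.96 and 17.8 FPKM in control and 2.50 and 2.58 in LPS (fell by 2.42, SE 0.06). Nr1h3 (LXR alpha, a sensor of oxysterols) was at 27.4 and 24.7 and 8.69 and 8.97 (fell by 1.46). Tfec (6.28 and 6.27 in control, 22.2 and 22.2 in LPS) rose by 1.67 and Mitf (11.2 and 10.6, 23.4 and 22.8) by 1.02, while their relatives Tfeb and Tfe3 (22.2 and 23.95, 12.7 and 13.3) fell by 2.73 and 0.78. By protein domain, 14 of 15 genes with a nuclear receptor zinc finger fell and 1 rose, with a median of -1.14. That 1 was Nr4a3, at 1.15 and 0.896 and 3.28 and 2.86 (1.01), whereas its relative Nr4a1, an orphan receptor of the immediate early class, was at 67.6 and 74.1 and 6.53 and 6.90 and fell by 3.22 (SE 0.07).

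Clock genes fell without exception: 10 of 10 tested passed downward (6 after centring, none upward), with a median of -1.01, and 4 further members of the list were below the minimum level. Besides Per1, the transcription factor Tef was at 7.90 and 8.26 in control and 0.892 and 1.16 in LPS (fell by 2.17), and Bhlhe41, a repressor of the clock, at 4.38 and 3.27 and 0.804 and 0.566 (fell by 1.51). Since 68.7% of all genes fell, the share after centring is the nearer comparison.

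G protein-coupled receptors of macrophages were divided evenly, 15 higher and 15 lower of 33 (16 and 11 after centring). Adora2a, the adenosine receptor that dampens inflammation, was at 4.11 and 3.11 FPKM in control and 50.7 and 49.8 in LPS (3.48, SE 0.11). Fpr2, a formyl peptide receptor, was at 10.5 and 6.68 and 85.7 and 79.9 (3.15, SE 0.20), and Gpr65, a proton-sensing receptor, at 60.7 and 64.6 and 9.72 and 10.8 (fell by 2.50, SE 0.07). Cxcr4 and Lpar6, given above, were the receptors of the list that fell furthest. Of 22 channels, 8 rose and 14 fell (9 and 9 after centring), where 17.1% of all genes rose and 68.7% fell as deposited. Clic4, a chloride intracellular channel protein, was at 69.4 and 64.9 and 469 and 455 (2.77, SE 0.05). Kcnk13, the THIK-1 potassium channel, was at 19.5 and 21.7 and 1.78 and 2.41 (fell by 2.81). The voltage-gated channel Kcna3 was at 2.84 and 3.40 and 15.6 and 13.6 (1.92), and the potassium channel genes given here went both ways, Kcnj2, Kcnk13 and Kcnk6 (fell by 1.86) going down and Kcna3 and the calcium-activated Kcnn4 (1.14) up.

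In the PI3K list, 7 of 17 rose and 9 fell (8 and 6 after centring), and the 3 of the list that reached 1 log2 unit were all lower. They were Inpp5d, the lipid phosphatase SHIP1 (49.1 and 49.95 and 7.11 and 9.59, fell by 2.45), the kinase Sgk1 (93.2 and 83.4 and 19.7 and 22.4, fell by 2.02) and Pik3r1, a regulatory subunit of PI3K (10.1 and 10.7 and 3.25 and 3.32, fell by 1.41). RNA polymerase II and elongation factors fell in 14 of 21 cases and rose in 4 (8 and 9 after centring). These counts lay near the shares over all genes, 68.7% lower and 17.1% higher as deposited. Hexim1, the inhibitor of the elongation kinase P-TEFb, was at 29.8 and 27.1 and 4.09 and 4.50 (fell by 2.48, SE 0.10). Polr2a, the largest polymerase subunit, was at 50.4 and 50.7 and 15.4 and 14.96 (fell by 1.67, SE 0.05), and Aff1, a scaffold of the super elongation complex, at 18.6 and 17.4 and 81.4 and 76.2 (2.07, SE 0.06).

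**Figure D4:**
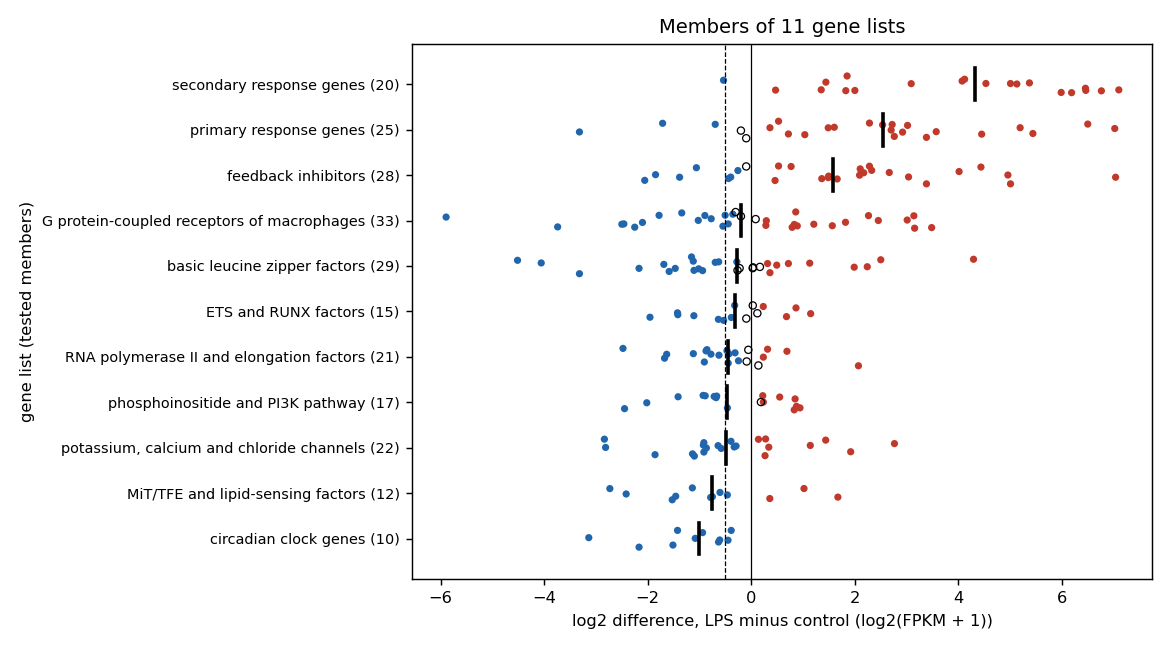
Log2 difference (x, LPS minus control, log2(FPKM + 1)) of each tested member of 11 gene lists (y), one point a gene, filled where the adjusted p is under 0.05, with a bar at the list's median, a dashed line at the median of all genes (-0.50) and a solid line at 0. Secondary and primary response genes have medians of 4.33 and 2.54, whereas the clock list lies wholly left of 0.

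Gene Ontology terms in the deposited annotation were ranked, with no test, by the median difference of their protein-coding members among 1202 biological process terms with 10 to 150 tested members. Interferon terms led. Of 32 tested genes under cellular response to interferon-beta, 26 rose and 3 fell, with a median of 3.56, against 1635 and 6901 of 9638 protein-coding genes and a median of -0.52. For cellular response to interferon-alpha the median was 3.07 (8 of 10 rose), and for cellular response to interferon-gamma it was 1.81 (25 of 40 rose, 13 fell). Chemokine-mediated signaling (median 2.19, 17 of 24 rose), positive regulation of interleukin-12 production (2.001, 9 of 13), defense response to protozoan (1.99, 19 of 25), response to exogenous double-stranded RNA (1.49, 7 of 12) and negative regulation of innate immune response (1.37, 9 of 12) completed the 8. A term that shared over 50% of its tested genes with a higher ranked one was passed over, and genes such as Ifit1 and Ccl4 still recur among them. Some deposited assignments differ from the known product of the gene, and counts are given as annotated.

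At the other end stood genome maintenance, lipid oxidation and growth factor response. Reciprocal meiotic recombination had the lowest median, -1.29, with 9 of 10 members lower, and mismatch repair followed at -1.18, with 10 of 12 lower; both hold the repair gene Msh6. Msh6 was at 5.60 and 5.56 FPKM in control and 0.963 and 1.26 in LPS and fell by 1.64. Fatty acid beta-oxidation by acyl-CoA dehydrogenases had 12 of 13 lower (median -1.08), among them Acadm, the medium-chain enzyme (17.95 and 18.6 and 5.95 and 6.34, fell by 1.43). Response to fibroblast growth factor (-1.11, 13 of 17 lower) contained Zfp36l1 (18.8 and 20.5 and 1.06 and 1.23, fell by 3.27) and Zfp36l2 (139 and 133 and 14.3 and 14.9, fell by 3.14), which bind AU-rich elements and speed mRNA decay. Lysosome localization (-1.07) had all 11 tested members lower, negative regulation of DNA binding (-1.11) 12 of 13, zinc ion homeostasis (-0.99) 8 of 10 and positive regulation of tyrosine kinase activity (-1.01) 7 of 10. After centring, the medians of these 8 terms lay between -0.77 and -0.48, with 6 to 10 members of each still lower.

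**Figure D5:**
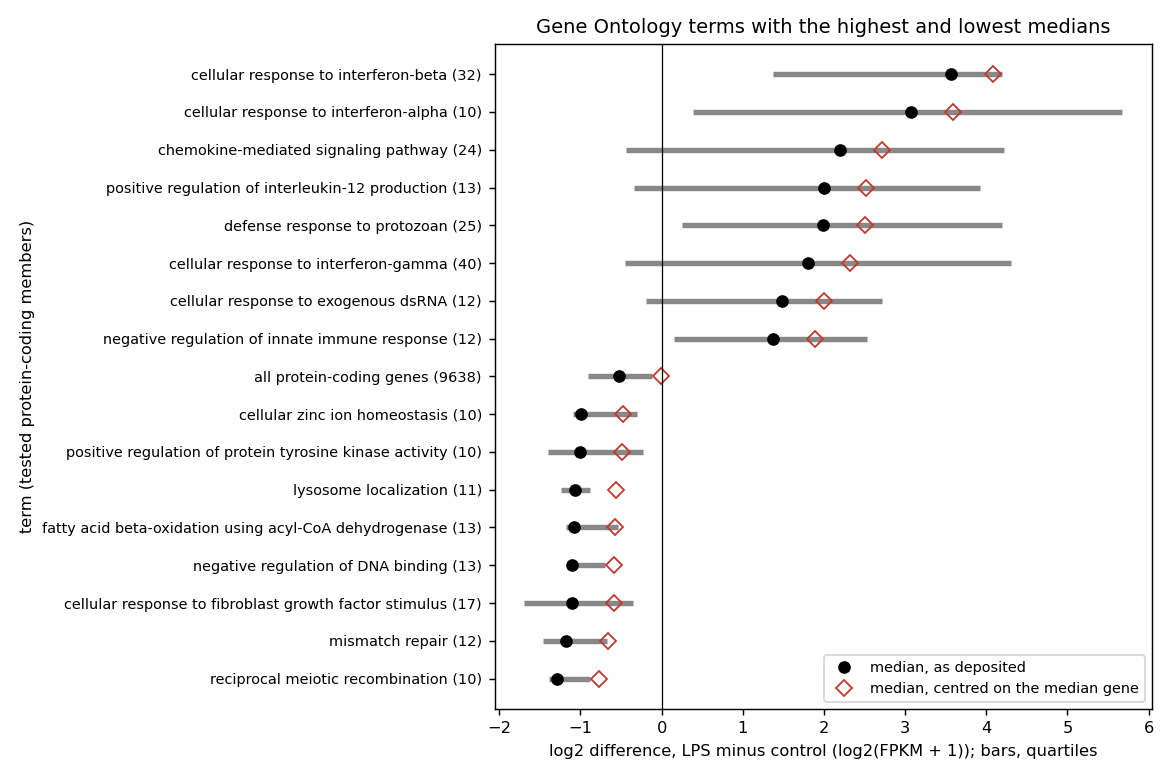
Median log2 difference (x) of the tested protein-coding members of the 8 highest and 8 lowest ranked Gene Ontology biological process terms and of all 9638 protein-coding genes (y), with bars from the lower to the upper quartile as deposited and a diamond for the median after centring. The terms run from cellular response to interferon-beta (median 3.56) to reciprocal meiotic recombination (-1.29), with all protein-coding genes at -0.52.

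Broad inflammatory terms held falling genes beside rising ones as deposited, and more rises than falls after centring. In the terms given here the share that fell was below that of all protein-coding genes. Of those 9638, 1635 rose and 6901 fell (3294 and 3338 after centring). Under response to lipopolysaccharide, 51 of 110 tested genes rose and 47 fell, with a median of 0.00 (62 and 24 after centring, median 0.52). The term joins Cxcl10 and Nos2 with Cnr2 and Fos, and also with Thbd, the thrombin cofactor (8.97 and 7.75 in control, 0.901 and 1.02 in LPS, fell by 2.25). Inflammatory response had 92 higher and 76 lower of 178 (108 and 39 after centring), and defense response to virus 57 higher and 47 lower of 115 (71 and 25 after centring); in the latter Ifngr1, a chain of the interferon gamma receptor (145 and 159 and 24.3 and 27.5, fell by 2.50), and Mavs, the adaptor of RNA sensors (16.5 and 18.3 and 3.40 and 4.21, fell by 1.94), were lower. Cytokine activity (23 of 36 higher, 13 lower, median 1.22) and chemokine activity (16 of 23 higher, 7 lower, median 2.54) were less mixed. Tgfb3 (3.35 and 3.62 and 0.0551 and 0.104) and Osm (11.6 and 9.37 and 3.61 and 3.42) were cytokine genes that fell, by 2.05 and 1.34.

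Housekeeping terms stayed near the shift of all genes. Translation had 10 higher and 158 lower of 191 (median -0.41), mRNA splicing 11 and 69 of 101 (-0.39), rRNA processing 9 and 58 of 75 (-0.43) and vesicle-mediated transport 8 and 67 of 91 (-0.53). Below it lay DNA repair with 15 higher and 139 lower of 162 (-0.72), DNA replication with 3 and 60 of 73 (-0.68), cilium assembly with 8 and 62 of 75 (-0.74) and fatty acid beta-oxidation with 1 and 26 of 29 (-0.84). After centring, more genes were higher than lower in translation (55 and 37), splicing (46 and 22), rRNA processing (26 and 14) and vesicle-mediated transport (32 and 24), and fewer in DNA repair (32 and 78), DNA replication (15 and 34), cilium assembly (18 and 38) and fatty acid beta-oxidation (4 and 16). Among 266 oxidoreductases 24 rose and 220 fell (55 and 102 after centring), and among 769 hydrolases 143 rose and 541 fell (284 and 246 after centring). Autophagy had 16 higher and 67 lower of 93 (-0.58; 31 and 32 after centring), and its 3 largest rises were the immunity-related GTPases Igtp (4.12), Irgm1 (3.88) and Irgm2 (3.65), beside falls of Tfeb and of Sesn2 (8.73 and 9.03 and 1.02 and 0.791, fell by 2.38), a relative of Sesn1.

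Protein families with at least 6 tested members, 286 in all, gave a similar order with some additions. The TNF family had the highest median, 3.94 (6 of 8 higher, 2 lower), with Tnfsf15, a ligand of death receptor 3, at 0.575 and 0.569 FPKM in control and 78.4 and 73.2 in LPS (5.61). Genes with the domain of guanylate-binding proteins followed (3.68, 8 of 10 higher), their lowest member being Atl2 at -0.54. After them came HIN domain proteins (3.43, 10 of 10), interferon-inducible GTPases (3.37, 12 of 12), chemokines of the IL8 family (2.92, 15 of 19) and the C-terminal domain of oligoadenylate synthetases (2.75, 7 of 7). Arrestin N-terminal domain genes had the lowest median, -2.23 (6 of 7 lower, none higher; 6 lower and 1 higher after centring), with Arrdc3 at one end and Arrdc4 (15.8 and 16.6 and 17.3 and 16.9, not past the test, adjusted p = 0.218 by limma with Benjamini-Hochberg adjustment) at the other, and Arrb2, beta-arrestin 2, in between (110.2 and 121 and 23.7 and 22.4, fell by 2.28). Arrdc4 rose by 0.59 after centring (adjusted p = 9.95e-05, limma) and by 0.29 with quantile normalization. Amino acid transporters of the Aa_trans family (-1.39, 7 of 9 lower) came next. Of 155 genes with a KRAB domain, which marks the largest family of zinc finger repressors, 146 fell and 8 rose (86 and 10 after centring), with a median of -0.84.

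In a minority of ortholog entries, members moved apart. Of 150 KEGG ortholog entries with at least 3 tested protein-coding members, 18 held both a member at least 1 log2 unit higher and one at least 1 lower. Entries are as deposited and do not always hold paralogs. The dynein light chain LC8 entry, 1 of the 18, was split only by the sorting nexin gene Snx10. The genes given with values in this paragraph were chosen after their values were seen. Dual-specificity phosphatases of 1 entry included Dusp2 (7.96 and 7.72 in control and 156 and 128 in LPS, 4.01) and Dusp6 (12.9 and 11.2 and 2.04 and 1.74, fell by 2.18), the latter selective for ERK. Pellino ubiquitin ligases included Peli1 (13.1 and 13.3 and 74.5 and 71.9, 2.39) and Peli2 (9.92 and 10.2 and 2.60 and 2.70, fell by 1.60). Within the pair of Dusp2 and Dusp6, the more abundant gene changed from Dusp6 to Dusp2 with LPS, while Dusp1 (above) exceeded both in control. Peli1 exceeded Peli2 in every library and by more in LPS. In the Regnase family, Zc3h12a, an RNase that degrades cytokine mRNA, was at 37.3 and 37.95 and 99.5 and 96.9 (1.36) and Zc3h12d at 11.5 and 12.9 and 1.75 and 1.99 (fell by 2.20). Of the acyl-CoA synthetases, Acsl1 was at 9.45 and 7.23 and 30.2 and 30.6 (1.76) and Acsl3 at 3.87 and 4.42 and 0.456 and 0.671 (fell by 1.72). Diacylglycerol kinases included Dgka (5.13 and 4.48 and 12.6 and 13.9, 1.30) and Dgkz (44.6 and 45.5 and 5.76 and 5.46, fell by 2.80), with Dgkz the more abundant in control and Dgka in LPS.

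The largest gains in FPKM were made by immune genes and 1 cytoskeletal gene. Cxcl10 and Rsad2 gained most, followed by Acod1 (the itaconate-forming enzyme, 149 and 93.1 in control and 2753 and 2702 in LPS, 4.52), Ccl4, Actb (beta-actin, 1798 and 1718 and 3327 and 3262, 0.91) and Ccl5 (185 and 192 and 1621 and 1600.1, 3.09). Actb was thus 1 of the 5 largest gains although its difference was under 1 log2 unit. The largest losses in FPKM were among the most abundant transcripts of the cells. Fth1, ferritin heavy chain, was at 21109 and 20845 and 15043 and 16036 and fell by 0.43, Lyz2 fell by 0.41, and Apoe, a lipid carrier, was at 7707 and 8500.0 and 5441 and 5827 and fell by 0.52. Relative to the median gene these 3 were at 0.08, 0.11 and -0.01, and none passed the test there. Abundant genes with a change closest to the median included Tyrobp, the adaptor of myeloid receptors (1257 and 1274 and 871 and 915), and the cathepsin gene Ctsl (197 and 193 and 135 and 140.0). A single small RNA annotated as a miRNA, Gm23935, held 4.23% and 3.34% of all FPKM in control and 2.90% and 6.48% in LPS, with overlapping groups.

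Long noncoding RNAs changed in both directions. Of 379 tested, 90 rose and 230 fell, with a median of -0.59 (126 and 137 after centring), and 57 reached 1 log2 unit upward and 104 downward. Their share of rises of that size, 15.04%, lay above the 7.52% of all genes, and their share of falls, 27.4%, above the 19.9%. Mir155hg, the host transcript of the inflammatory microRNA miR-155, was at 0.709 and 0.886 FPKM in control and 61.8 and 55.99 in LPS (5.06, SE 0.07). AW112010, an interferon-induced transcript of immune cells, was at 45.6 and 36.7 and 1007 and 955 (4.55, SE 0.10). Ptgs2os2, transcribed beside Ptgs2, was at 0.429 and 0.0992 and 6.76 and 8.24 (2.76). Neat1, the scaffold of nuclear paraspeckles, was at 90.4 and 95.3 and 13.8 and 15.3 (fell by 2.59, SE 0.07), and F630028O10Rik, a host of microRNAs, at 19.9 and 21.6 and 1.19 and 1.08 (fell by 3.35). Whether counting used strand is unstated, so reads of antisense and sense partners cannot be told apart. This touches Cebpb, Ctsl, Gpr65 and Zfp36l1, each with over 20% of its exon bases covered by a gene on the opposite strand. Of Fpr2 and Etv5, 31.5% and 24.5% of the 50-base stretches recur in another gene, so their levels are uncertain.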

How the data were processed

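RNA of 6 mouse macrophage libraries (control, LPS and Glul_LPS, 2 each) was sequenced. Values are FPKM per gene as the authors deposited them; of the tools behind them, HISAT2 2.1.0, HTSeq 0.6.0, CASAVA and DESeq2 with build GRCm38 appear in the submitters' processing notes, without settings, annotation or use of strand. FPKM is relative to the library, so changes in total RNA per cell cannot be read from it. The table held 6 further per-sample columns that match no label, and these were not used.

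Genes with at least 1 FPKM in 2 or more of the 4 control and LPS libraries were tested on log2(FPKM + 1) with limma 3.58.1 (R 4.3.3; two-sided moderated test, trend of variance on level, all 6 libraries in the fit) and Benjamini-Hochberg adjustment over 10858 genes at 0.05. A fold on this scale understates the change of low genes. The fit was repeated with each library centred on its median gene. Low FPKM values were whole multiples of 1 fragment: with GENCODE exon lengths, 97.1% to 97.5% of single-exon genes came out whole within 0.01, which gave library totals of 15649764 to 18691669 and fragments for a voom fit over 9483 genes. The fit was run on simulated data in which a minority of genes changed, as many up as down. That check does not cover a shift of most genes, as seen here. Descriptions used Python 3.11.15 with pandas 2.3.3. GO terms were counted over protein-coding genes, a choice made after seeing the data. The KEGG column held ortholog names, so the ranking of pathways planned for it was replaced by ortholog groups.

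Genes were named by rule: the 15 largest changes each way among genes past the test whose higher group averaged 5 FPKM or more and whose groups did not overlap (predicted genes, pseudogenes and ribosomal protein genes left out), the largest gains and losses in FPKM, abundant genes nearest the median gene, the 4 largest changes of each list, the 3 largest each way of each term, 10 genes each of those turned on and off, and the largest long noncoding changes. Other genes given with values (Acsl1, Acsl3, Arrdc4, Btg2, Cebpb, Dgka, Dgkz, Dusp1, Dusp2, Dusp4, Dusp6, Gpr65, Ifnb1, Jun, Kcnk6, Kcnn4, Maff, Mafg, Mafk, Marco, Mitf, Nr1h3, Nr4a3, Peli1, Peli2, Spi1, Tfe3, Trib1, Zc3h12a and Zc3h12d) were chosen after their values were seen. Some genes the rule names, and 1 list, are not reported here. The members and lists were chosen with earlier results of these data known. Alternatives were other pseudocounts, filters, sample sets, variance models, scalings, a replicate block, voom, and leaving out each library.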

Additional observations from a re-analysis of the deposited data

How the results depend on the processing

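Counts of genes higher and lower as deposited (1860 and 7460) were 3355 and 3505 with voom on recovered fragments and TMM scaling, 2935 and 4879 with median-ratio rescaling (added after seeing the data), 3023 and 4615 with quantile normalization, 3724 and 3569 after centring, and 816 and 2162 at a minimum change of 1 log2 unit; 3927 were lower with a filter at a mean of 5 FPKM, which tests fewer genes. Centred counts (3724 and 3569) were 1359 and 672 at that minimum change, 10625 higher with no filter and 1885 higher with the filter at 5 FPKM; the cause was not tested. Leaving out 1 library gave 1729 to 1768 higher and 6976 to 7158 lower as deposited and 3266 to 3377 and 2967 to 3215 centred, the lone library of a group being assumed to vary like the others. Library letters did not pair the samples (correlations of -0.02, -0.03 and -0.04 between same-letter deviations), and a replicate block gave 1835 and 7434. Pseudocounts of 0.1 and 0.5, no trend, robust spread and 4 libraries alone kept deposited and centred counts within 1.5 times, and TPM and voom on library totals (also added after seeing the data) the deposited counts. Across the named genes and these alternatives, a difference changed sign in 15 cases, counted apart whether or not the call changed too. Among cases that kept their sign, calls were lost in 30, 9 of them through the minimum change, and gained in 7. Under centring the sign changed for Ctsl (0.0132), Tyrobp (0.0123), Fth1 (0.0819), Lyz2 (0.11), Dusp1 (0.42) and Spi1 (0.42); under median-ratio rescaling Lyz2 (0.0123), Dusp1 (0.32) and Spi1 (0.32); under voom with TMM scaling Apoe (0.0738), Ctsl (0.0912), Tyrobp (0.0931), Lyz2 (0.19), Marco (0.0165) and Spi1 (0.50). Depth limits genes near 1 FPKM, where 1 fragment on 1 kb is worth 0.0535 to 0.0639 FPKM.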
